A study of Mus musculus with 312 samples.

Results

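Heat shock proteins are molecular chaperones, which bind unfolded or newly made proteins and help them to fold, and their transcripts were followed here in single basal cells of the mouse mammary gland. The 10 members were taken as a list of gene symbols, Hspa1a, Hspa1b, Hsph1, Dnajb1, Hspb1, Hsp90aa1, Hspa8, Hsp90ab1, Hspa5 and Hsp90b1, and all 10 were found among the 25136 genes used. They were separated into 8 genes whose proteins work in the cytosol and 2, Hspa5 and Hsp90b1, whose proteins work in the endoplasmic reticulum (ER). Of the 8 cytosolic genes, 6 are known as stress-inducible to varying degrees (Hspa1a, Hspa1b, Hsph1, Dnajb1, Hspb1 and Hsp90aa1) and 2 are expressed constitutively (Hspa8 and Hsp90ab1).

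As background, transcription of the cytosolic stress-inducible genes is driven by heat shock factor 1, which is held inactive by chaperones and binds heat shock elements in promoters once unfolded proteins accumulate. The ER chaperones answer to a separate pathway, the unfolded protein response, in which Atf6 and Xbp1 bind ER stress elements. Enzymatic dissociation of tissue and sorting are themselves known to induce heat shock and immediate early genes, and secretory tissues such as the lactating mammary gland carry a high load of ER folding.

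The data came from 312 FVB/NJ mouse cells labelled as basal epithelium, the outer, contractile layer of the gland, captured freshly sorted on the Fluidigm C1, which isolates each cell in its own chamber. Adult titles gave 112 cells with the mark (2), called marked here, and 125 without it, called unmarked, while 75 titles named pregnancy. Adult cells were sorted as Lin-CD29hiCD24+ in the study, but its C1 capture at mid-pregnancy is described there as total mammary epithelium, and the basal name of those cells comes from the labels. No animal is named for any cell and no cell received a treatment.

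Each group was therefore taken as 1 sample, no test was run, and no difference below has a replicate check. Intervals are exact 95% intervals that cover counting error only, and quartiles describe spread among cells. The labels name no capture run, so pregnancy cannot be told apart from the run in which its cells were taken. With at least 50000 read pairs and 1000 genes outside the mitochondrial and ribosomal protein genes, 81 marked, 58 unmarked and 71 pregnancy cells were retained, with medians of 174910, 101320.5 and 230645 assigned read pairs. The mitochondrial share had medians of 9.65%, 15.6% and 18.4% of all reads. At least 6 of 11 core basal genes, such as Krt14 and Acta2, reached 100 CPM (reads per 1000000 assigned reads) in 93.8% of marked, 87.9% of unmarked and 98.6% of pregnancy cells. The basal label was thus met by most cells, but 4 marked, 3 unmarked and 1 pregnancy cell carried 3 or more of 7 pan-luminal genes, and 4 unmarked and 4 pregnancy cells as many milk protein genes. In addition, 1 marked cell carried 3 or more immune genes, 2 marked cells pericyte genes, 1 unmarked cell endothelial genes, and 3 unmarked and 3 pregnancy cells fibroblast genes. The summed level of 8 fibroblast genes had medians of 4.22, 28.8 and 561 CPM (0 to 3262, 0 to 39479 and 55.2 to 5782), with Dcn alone at a median above 0 in unmarked cells. The part of these cells, of this signal and of depth in the results was not tested, beyond the values given without cells under 6 core basal genes.

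In the RefSeq annotation of GRCm38.p6, which is mm10, the cytosolic members are Hspa1a (chr17:34969359-34972156), Hspa1b (chr17:34956429-34959238), Hsph1 (chr5:149616843-149636498), Dnajb1 (chr8:83608175-83612653), Hspb1 (chr5:135887919-135889563), Hsp90aa1 (chr12:110691036-110696395), Hspa8 (chr9:40801276-40805202) and Hsp90ab1 (chr17:45567778-45573261), and the ER members are Hspa5 (chr2:34772090-34776529) and Hsp90b1 (chr10:86690841-86705444). Hspa1a and Hspa1b are neighbours on chromosome 17, and reads were counted over the exons of each gene.

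Promoter windows of RefSeq (build GRCm38.p6), 250 bases before to 50 bases after each transcript start, were matched for 7 of the 10 members, and 5 are printed to show what separates the cytosolic from the ER genes and how alike the Hspa1 pair is. Capitals mark a match to a heat shock element (2 units GAANNTTC, or 3 units GAANNTTCNNGAA) or to an ER stress element (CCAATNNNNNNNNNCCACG), all read on both strands.
Hspa1a, chr17:34972107-34972406, minus strand: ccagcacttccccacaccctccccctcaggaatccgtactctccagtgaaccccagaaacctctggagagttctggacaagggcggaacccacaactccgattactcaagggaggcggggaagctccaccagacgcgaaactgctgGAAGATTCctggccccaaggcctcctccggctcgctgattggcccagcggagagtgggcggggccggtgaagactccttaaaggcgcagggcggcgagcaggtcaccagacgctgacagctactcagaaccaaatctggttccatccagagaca
Hspa1b, chr17:34959189-34959488, minus strand: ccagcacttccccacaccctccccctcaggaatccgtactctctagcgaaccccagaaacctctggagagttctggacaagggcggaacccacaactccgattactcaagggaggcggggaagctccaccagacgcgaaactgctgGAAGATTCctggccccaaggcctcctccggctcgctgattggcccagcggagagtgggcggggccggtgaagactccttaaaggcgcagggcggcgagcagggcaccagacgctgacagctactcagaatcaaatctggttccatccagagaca
Hsph1, chr5:149636287-149636586, minus strand: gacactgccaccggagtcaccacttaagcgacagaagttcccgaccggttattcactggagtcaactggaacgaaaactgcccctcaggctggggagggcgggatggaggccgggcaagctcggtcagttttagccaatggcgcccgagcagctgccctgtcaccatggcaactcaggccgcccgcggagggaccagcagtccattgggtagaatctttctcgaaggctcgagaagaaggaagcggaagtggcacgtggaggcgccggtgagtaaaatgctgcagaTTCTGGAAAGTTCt
Hspa5, chr2:34771840-34772139, plus strand: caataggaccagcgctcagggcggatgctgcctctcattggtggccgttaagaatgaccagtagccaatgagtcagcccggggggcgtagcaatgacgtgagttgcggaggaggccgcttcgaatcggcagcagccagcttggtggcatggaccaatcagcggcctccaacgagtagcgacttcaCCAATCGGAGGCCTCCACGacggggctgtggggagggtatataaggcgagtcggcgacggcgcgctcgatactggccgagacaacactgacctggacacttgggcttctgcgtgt
Hsp90b1, chr10:86705395-86705694, minus strand: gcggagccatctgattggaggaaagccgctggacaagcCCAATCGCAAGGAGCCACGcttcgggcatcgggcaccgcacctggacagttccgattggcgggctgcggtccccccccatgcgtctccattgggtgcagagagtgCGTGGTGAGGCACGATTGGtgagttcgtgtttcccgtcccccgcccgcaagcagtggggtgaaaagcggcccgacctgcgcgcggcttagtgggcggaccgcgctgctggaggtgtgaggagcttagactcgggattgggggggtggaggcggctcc

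The windows of Hspa1a and Hspa1b were identical at 296 of 300 bases, and each held the 2-unit element with its first base 104 bases before the start. Hsph1 held the 3-unit element from base 37 after the start, which contains a 2-unit match, and Hspb1 held the 2-unit element 117 and 97 bases before the start. The 2-unit letters occur in 7.86% and the 3-unit letters in 0.603% of 32851 promoter windows, so the shorter match alone is common. The 2 units in the other order, TTCNNGAA, were not searched, and the Hsph1 window holds them before the start as TTCTCGAA, unmarked above. The ER stress element occurred 65 bases before the start of Hspa5 and 212 and 107 bases before that of Hsp90b1, against 39 of all windows (0.119%), and each match contains a CCAAT box, which 37.4% of windows hold. No window of the 4 cytosolic genes named above or of Dnajb1 held the ER stress element, and Dnajb1 held neither heat shock element in its windows. The windows of Hspa8, Hsp90aa1 and Hsp90ab1 were not among those matched. A match is a description of letters and was not read as a bound site.

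How far reads can be assigned to 1 member differs between genes. Of all 75-base windows of their annotated transcripts (GENCODE M21), 61.7% for Hspa1a and 55.8% for Hspa1b also occur in another gene, for most of them the other member of the pair. For Hspa8 the share was 62.4%, for Hspb1 46.4% and for Hsp90aa1 45.4%, most of them in the genes annotated as Gm15459, Hsp25-ps1 and Gm12346 respectively. By contrast, Hsph1, Dnajb1 and Hspa5 shared no window, Hsp90ab1 shared 0.664% and Hsp90b1 9.45%. The levels of Hspa1a and Hspa1b are thus uncertain one by one, and their sum is given as well. For Hspa8, Hspb1 and Hsp90aa1 the level is uncertain too, and with it their place in the order of members below. How reads with several matches were treated is not given. Hsp90b1 also overlaps the pseudogene 1810014B01Rik, and Hspa1a overlaps Gm20481, both on the opposite strand. On the same strand, Hsp90b1 overlaps Gm15344 and Gm25745, and Hspa8 overlaps the snoRNA genes Snord14c, Snord14d and Snord14e.

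Across members, transcripts ranged over more than 100-fold in level, and Hsp90ab1 stood first among them in every group. On the RPKM scale (CPM per kilobase of exon), Hsp90ab1, the constitutive HSP90 of the cytosol, had means of 2278, 1979 and 2092 RPKM in marked, unmarked and pregnancy cells, at rank 14, 17 and 15 of all genes. Hspa5, the ER HSP70 also known as BiP, followed in adult cells with means of 779 and 805 RPKM, and had 613 RPKM in pregnancy cells. Hsp90b1, the ER HSP90 also known as GRP94, had 459 and 501 RPKM in adult cells and 674 RPKM in pregnancy cells, where it stood above Hspa5. The inducible HSP90, Hsp90aa1, had 348, 351 and 285 RPKM, and the constitutive HSP70, Hspa8, had 190, 194 and 203 RPKM. The other 5 inducible members lay lower. Hspb1, a small heat shock protein, had 92.5, 106 and 55.1 RPKM, and Dnajb1, an HSP40 that delivers clients to HSP70, had 80.7, 95.1 and 83.8 RPKM. Hsph1, an HSP110 that exchanges nucleotide on HSP70, had 51.5, 30.7 and 52.8 RPKM. Lowest were the inducible HSP70 genes, Hspa1b with 25.3, 28.8 and 23.4 RPKM and Hspa1a with 11.0, 15.5 and 9.47 RPKM. Hsp90ab1 stood apart from the next member in each group, with quartiles of 1349 to 3021 RPKM against 328 to 1059 RPKM for Hspa5 in marked cells. Hspa8 stood apart from the next lower member in marked cells, with quartiles of 115 to 249 RPKM against 0 to 91.9 RPKM for Hspb1. In unmarked cells its quartiles of 71.6 to 271 RPKM overlapped those of Dnajb1 (0 to 94.5 RPKM). The quartiles of Hspa5, Hsp90b1 and Hsp90aa1 overlapped from one to the next, as did those of Hsp90aa1 and Hspa8 and those of the 5 lowest members.

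**Figure D1:**
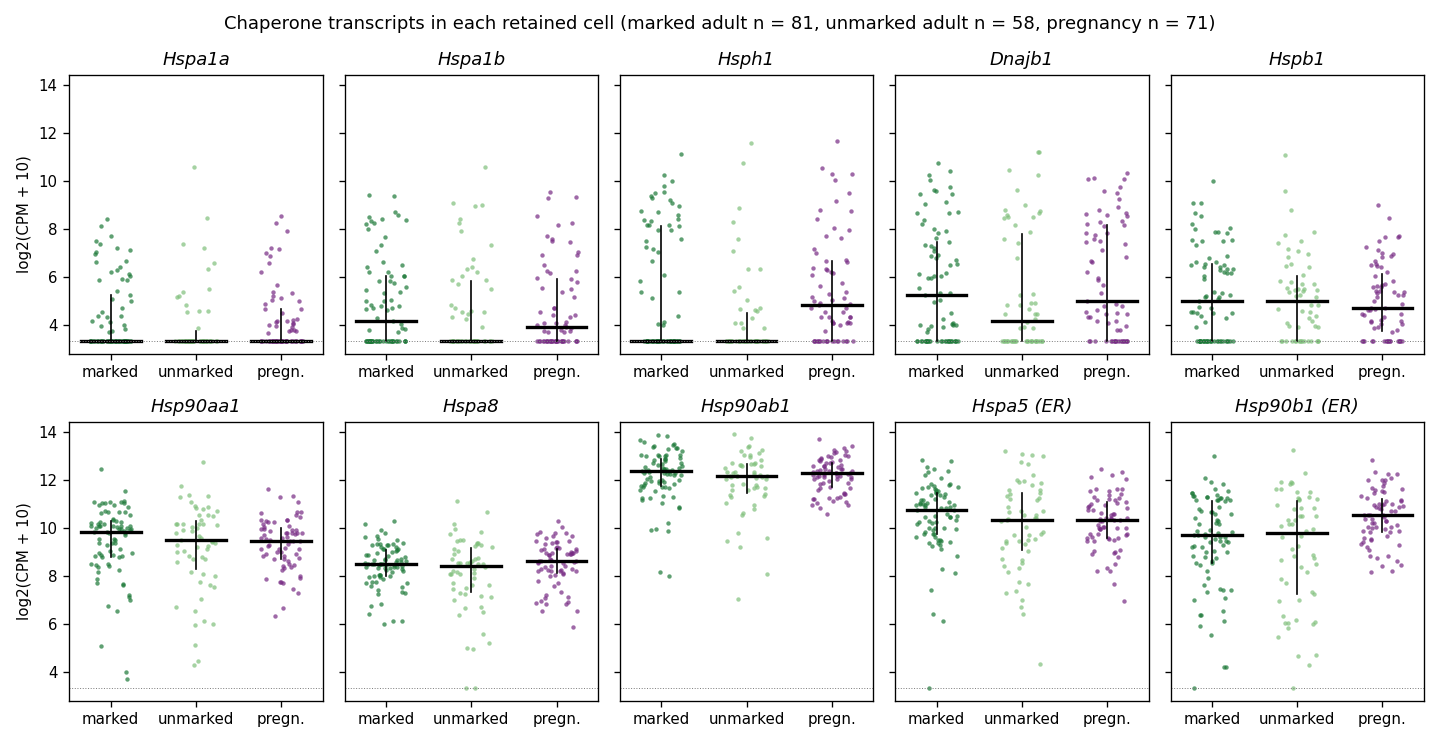
Level of each member in every retained cell, as log2(CPM + 10) on the vertical axis, with 81 marked adult, 58 unmarked adult and 71 pregnancy cells. Points are cells, thick bars medians, thin bars quartiles and the dotted line is no read. Hsp90ab1 lies highest in all 3 groups, and the 5 lower inducible members have low medians, from 0 to 27.7 CPM.

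Reads of the inducible HSP70 genes were concentrated in few cells, most of all among unmarked cells, where 5 cells held 89.9% of the summed Hspa1a CPM and 72.0% of that of Hspa1b, against 45.4% and 42.7% in marked and 61.7% and 56.7% in pregnancy cells. Hspa1a had a lowest and a median value of 0 CPM in all 3 groups, and its highest cells reached 332 CPM among marked, 1547 CPM among unmarked and 364 CPM among pregnancy cells. Hspa1b had medians of 7.97, 0 and 4.90 CPM, with highest cells at 665, 1535 and 732 CPM. Most cells thus gave no or hardly any read for either gene, and all ranges overlapped. Unmarked cell 177 held 61.4% of the summed Hspa1a CPM of its group, and the mean without it was 17.1 CPM in place of 43.5 CPM, against 30.7 CPM in marked cells. Unmarked cell 220 held 32.7% of the summed Hspa1b CPM, and the mean without it was 55.5 CPM in place of 81.0 CPM. Cell 177 carried 9 and cell 220 all 11 core basal genes, so neither lacked the basal markers, and they had only 62689 and 51464 assigned read pairs. Summed over the pair, which is less open to exchange of reads, the medians were 23.0, 2.27 and 24.7 CPM, the means 102, 125 and 92.4 CPM, and the highest cells 706, 2074 and 732 CPM. Together the pair took 0.00988% of assigned reads in marked (0.00939 to 0.0104), 0.00936% in unmarked (0.00866 to 0.0101) and 0.00809% in pregnancy cells (0.00766 to 0.00854).

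The cofactors of HSP70 and the small heat shock protein also varied widely between cells, Dnajb1 less so than Hsph1. Hsph1 had medians of 0, 0 and 18.1 CPM and highest cells of 2235, 3061 and 3293 CPM. Unmarked cell 157 alone held 49.4% of the Hsph1 sum of its group, and the mean without it was 55.1 CPM in place of 107 CPM. This cell had none of the 11 core basal genes at 100 CPM and carried fibroblast genes. Dnajb1 had medians of 27.7, 8.06 and 21.9 CPM and highest cells of 1732, 2389 and 1280 CPM, with no cell above 19.1% of a group's sum. Hspb1 had medians of 21.8, 22.3 and 16.3 CPM and highest cells of 1017, 2190 and 498 CPM. Again 1 unmarked cell, number 231, held 39.6% of the Hspb1 sum, and the unmarked mean without it was 58.7 CPM in place of 95.4 CPM.

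The constitutive genes and Hsp90aa1 behaved differently, with reads in nearly every cell. Hsp90ab1 ran from 242 to 15050 CPM in marked cells (median 5283), from 123 to 15364 CPM in unmarked cells (median 4578) and from 1507 to 13581 CPM in pregnancy cells (median 4934). The lowest pregnancy cell lay above the lowest adult cells, but the 3 quartile ranges covered much the same values. Hspa8 had medians of 351, 332 and 382 CPM, with 2 unmarked cells at 0 and highest cells of 1227, 2239 and 1228 CPM. Hsp90aa1 had medians of 902, 706 and 699 CPM, and its lowest cells stood at 3.07, 9.66 and 70.4 CPM. Within single cells Hsp90ab1 had more RPKM than Hsp90aa1 in 95.1% of marked (87.8 to 98.6), 93.1% of unmarked (83.3 to 98.1) and 98.6% of pregnancy cells (92.4 to 100), by a median of 6.93, 6.77 and 7.84 times. The constitutive form of HSP90 was therefore the major one in almost all cells of each group. It also made up 74.7%, 71.8% and 74.9% of the mean of the 8 cytosolic genes together.

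Both ER genes were abundant in every group, and their balance differed between adult and pregnancy cells. Hspa5 had medians of 1726 CPM in marked, 1279 CPM in unmarked and 1286 CPM in pregnancy cells, with cells from 0 to 7210, from 9.84 to 9337 and from 115 to 5540 CPM. Hsp90b1 had medians of 817, 863 and 1473 CPM, with cells from 0 to 8171, from 0 to 9684 and from 277 to 7318 CPM. The pregnancy cells were higher in Hsp90b1 at the low end and in the middle but not at the top, and the quartiles overlapped (361 to 2200, 142 to 2200 and 895 to 2341 CPM). Hsp90b1 made up 38.3% of the mean ER sum in marked, 39.6% in unmarked and 53.7% in pregnancy cells. In RPKM it exceeded Hspa5 in 17 of 81 marked (21.0%, 12.7 to 31.5), 20 of 58 unmarked (34.5%, 22.5 to 48.1) and 38 of 71 pregnancy cells (53.5%, 41.3 to 65.5). The intervals hold counting error alone. In cells with reads of both genes, the median ratio of Hsp90b1 to Hspa5 RPKM was 0.479 in marked, 0.611 in unmarked and 1.04 in pregnancy cells.

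**Figure D2:**
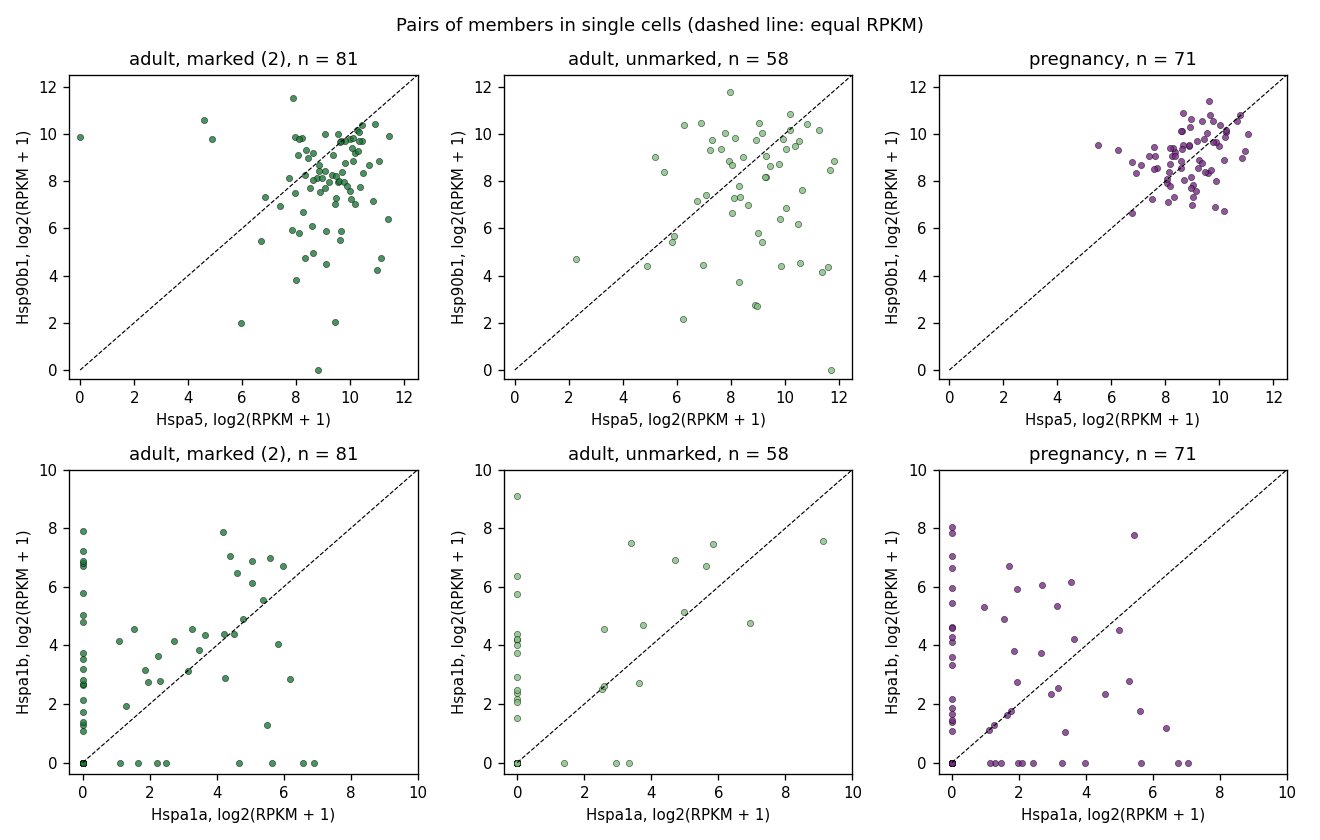
Members of 2 pairs against each other in each retained cell, on log2(RPKM + 1) axes, with the dashed line at equal RPKM. In the upper row Hsp90b1 lies above the line in 21.0% of marked, 34.5% of unmarked and 53.5% of pregnancy cells, and in the lower row many cells have reads of only 1 of Hspa1a and Hspa1b.

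Detection separated the 5 lower inducible genes from the other members, Hsp90aa1 included. At 100 CPM, which is 5 read pairs at the lowest depth kept, Hsp90ab1 was found in all 81, 58 and 71 cells. Hspa1a reached this level in 11.1% of marked (5.21 to 20.0), 6.90% of unmarked (1.91 to 16.7) and 9.86% of pregnancy cells (4.06 to 19.3). Hspa1b stood at 17.3%, 13.8% and 18.3%, Hspb1 at 22.2%, 19.0% and 16.9%, and Dnajb1 at 34.6%, 31.0% and 39.4%. These shares of the 4 genes lay within 10 percentage points of each other between groups. Hsph1 differed more, at 34.6% of marked (24.3 to 46.0), 10.3% of unmarked (3.89 to 21.2) and 22.5% of pregnancy cells (13.5 to 34.0). At this level pregnancy cells lay between the adult sets. After thinning to 50000 reads a read of Hsph1 was found in 43.2% of marked, 27.6% of unmarked and 52.1% of pregnancy cells, so the order of marked and pregnancy cells was the opposite.

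Among genes found in most cells, Hsp90aa1 reached 100 CPM in 93.8%, 86.2% and 97.2%, Hspa8 in 93.8%, 82.8% and 95.8%, and Hspa5 in 96.3%, 94.8% and 100% of marked, unmarked and pregnancy cells. Hsp90b1 did so in 88.9% of marked (80.0 to 94.8), 79.3% of unmarked (66.6 to 88.8) and all 71 pregnancy cells (94.9 to 100). After each cell was thinned to 50000 reads, a read of Hsp90b1 was found in 95.1%, 98.3% and 100% of cells. Before thinning, 1 marked and 1 unmarked cell had no read of it, so most adult cells below 100 CPM had reads at a low level. Thinned cells had medians of 2313, 2210.5 and 3220 detected genes, so pregnancy cells were the more complex, and the part of this in detection was not tested.

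**Figure D3:**
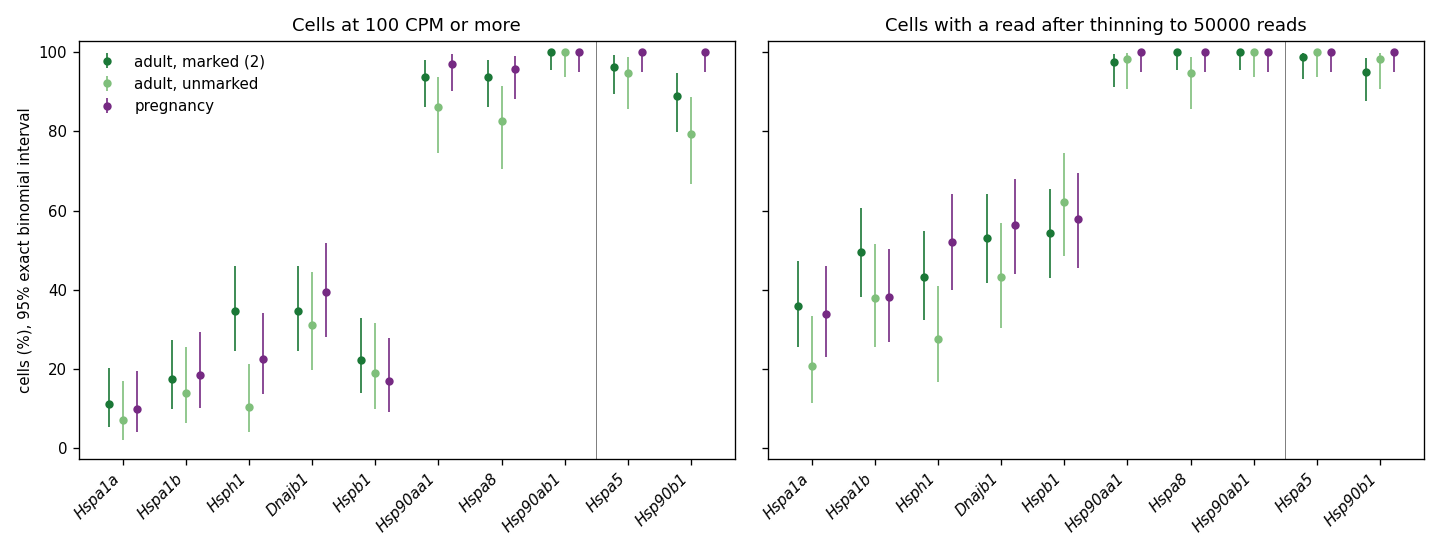
Percent of retained cells with each member at 100 CPM or more (left) and with at least 1 read after thinning to 50000 reads (right), with exact 95% binomial intervals, for 81 marked, 58 unmarked and 71 pregnancy cells. The 5 lower inducible members stay below 40% at 100 CPM in each group, and Hsp90b1 reaches all pregnancy cells.

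How many of the lower inducible genes a cell showed depended on the level asked for. Counting Hspa1a, Hspa1b, Hsph1, Dnajb1 and Hspb1 at 100 CPM, 29.6% of marked (20.0 to 40.8), 43.1% of unmarked (30.2 to 56.8) and 28.2% of pregnancy cells (18.1 to 40.1) had none of the 5. A single gene was found in 35.8%, 39.7% and 43.7% of cells. At this level 28 marked (34.6%), 10 unmarked (17.2%) and 20 pregnancy cells (28.2%) had 2 or more. With a single read after thinning, 52 marked (64.2%), 32 unmarked (55.2%) and 53 pregnancy cells (74.6%) had 2 or more, and 6, 4 and 3 cells had all 5. At 100 CPM, marked cell 63 and unmarked cell 234 alone had 4 of the 5, and no cell had all 5. By the limit of 3 counts this allows a share of up to 3.70%, 5.17% and 4.23%. The exact upper limits are 4.45%, 6.16% and 5.06%. Marked cell 63 had 313 CPM of Hspa1b, 313 CPM of Hsph1, 108 CPM of Dnajb1 and 399 CPM of Hspb1, but no read of Hspa1a. Unmarked cell 234 had 136 CPM of Hspa1a, 292 CPM of Hspa1b, 303 CPM of Hsph1 and 376 CPM of Dnajb1. Its Hsp90aa1 level of 1127 CPM was within the quartiles of its group.

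The comparison of pregnancy with adult cells asked how chaperone transcripts differ between stages. The log2 ratio of mean CPM + 10 was -0.34 for Hspa1a, -0.17 for Hspa1b, 0.28 for Hsph1, -0.05 for Dnajb1, -0.72 for Hspb1 and -0.29 for Hsp90aa1. For the constitutive genes it was 0.09 (Hspa8) and -0.04 (Hsp90ab1), and for the ER genes -0.36 (Hspa5) and 0.50 (Hsp90b1). All members lay within 2-fold. Without the highest cell of each group, the ratio was -0.15 for Hspa1a and 0.11 for Hsph1. Of the 9 members that averaged 50 CPM or more in adult or pregnancy cells, which left out Hspa1a, none was 2-fold higher or lower, while 15.6% of 4548 such genes were 2-fold higher and 11.6% were 2-fold lower with the same sign against both adult sets. The median size of the log2 ratio was 0.28 over the 9 members and 0.62 over all 4548 genes. These genes were not matched to the members in level, and how the size of a ratio goes with level was not tested. Within adult cells the size of the unmarked over marked log2 ratio had a median of 0.16 over the 9 members, and none passed 2-fold in all retained cells, where 18.9% of 4578 genes were higher and 16.7% lower. The largest difference within adult cells was that of Hsph1 at -0.70, which was -1.54 without unmarked cell 157 and -1.33 without the highest cell of each adult set. Hsph1 was then past 2-fold lower in unmarked than in marked cells, as it was among cells with at least 6 core basal genes (-1.49). Without cell 157, the unmarked mean of 55.1 CPM also lay more than 2-fold below the pregnancy mean. That mean was 184 CPM, or 139 CPM without the highest pregnancy cell.

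**Figure D4:**
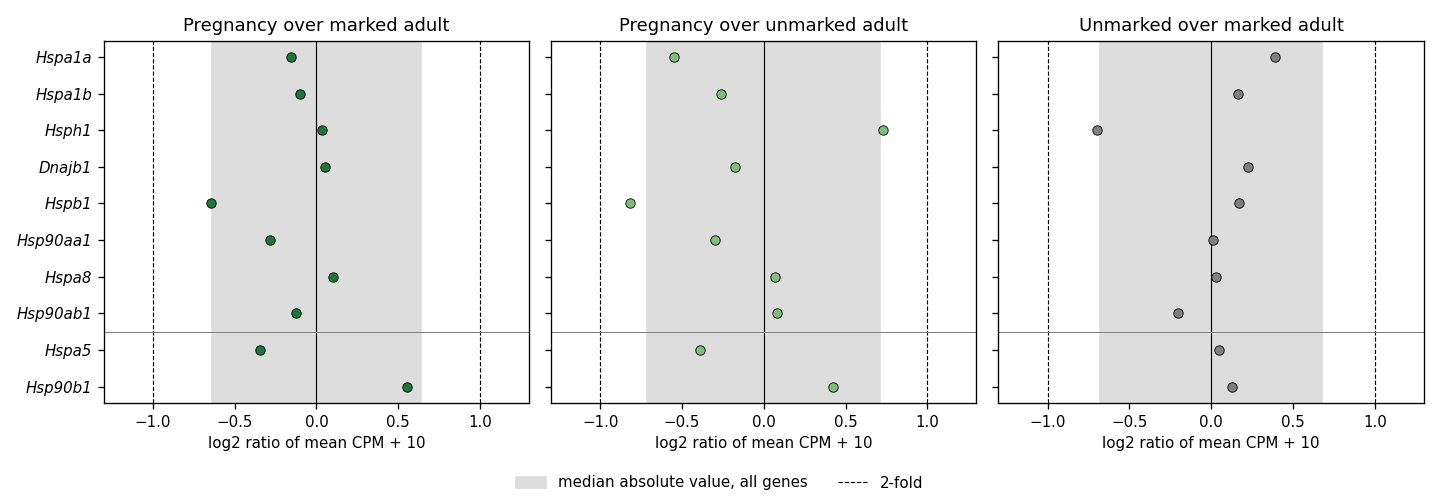
Log2 ratio of mean CPM + 10 for each member (horizontal axis) of pregnancy over marked adult, pregnancy over unmarked adult and unmarked over marked adult cells. Dashed lines mark 2-fold and the grey band the median absolute log2 ratio of all tested genes. With all retained cells, all 10 members lie between the dashed lines, although Hsph1 passes 2-fold in unmarked over marked cells without cell 157 (-1.54). Without that cell the unmarked mean of Hsph1 was 55.1 CPM, more than 2-fold below the pregnancy mean of 184 CPM, which is not drawn.

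Of single members, Hspb1 had the largest ratio, with means of 83.5 and 95.4 CPM in the adult sets and 49.8 CPM in pregnancy cells. Its ratio was -0.65 against marked and -0.82 against unmarked cells, but medians differed little (21.8, 22.3 and 16.3 CPM). In cells with at least 100000 reads and 1500 genes it was -0.24. Hsp90b1 was the member with the largest value in the other direction, with means of 1266 and 1382 CPM in the adult sets and 1860 CPM in pregnancy, and a log2 ratio of 0.55 and 0.43 against them. When log2 values were averaged over cells in place of CPM, its difference was 1.20, past 2-fold. Hspa5 differed in the other direction, with means of 2037 and 2107 CPM in the adult sets and 1605 CPM in pregnancy, at -0.34 and -0.39. All cells share one denominator of assigned reads, so such ratios are relative to the other transcripts of a cell.

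As sums, both compartments were nearly level between stages. The 8 cytosolic genes took 0.774% of assigned reads in marked (0.770 to 0.778), 0.690% in unmarked (0.683 to 0.696) and 0.700% in pregnancy cells (0.696 to 0.704). The ER genes took 0.325% (0.323 to 0.328), 0.356% (0.352 to 0.361) and 0.333% (0.330 to 0.335). On the scale of mean CPM + 10, the log2 ratio of pregnancy over adult was -0.07 for the cytosolic sum, -0.21 for its 6 inducible genes, -0.03 for its 2 constitutive genes and 0.04 for the ER sum. In cells with at least 6 core basal genes the cytosolic value was -0.09 and the ER value 0.03. Hsp90aa1 made up 64.4%, 64.8% and 61.2% of the inducible sum, and without it the ratio of that sum was -0.08. Scaling to all reads, mitochondrial and ribosomal ones included, moved the median over all genes by -0.15 and gave -0.22 for the cytosolic and -0.15 for the ER sum. The ER sum thus has no stable direction between the stages, since it was above 0 under 8 of 13 other settings.

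Other genes of the chaperone pathways were described by lists. For all lists below, the shares over the 4548 tested genes were 15.6% 2-fold higher and 11.6% 2-fold lower in pregnancy. Single genes past 2-fold in a list were therefore not read as a change of a pathway. Of 27 other cytosolic chaperones and cochaperones, 19 had at least 50 CPM, of which 2 were 2-fold higher in pregnancy (Hspa14 and Dnajb6) and 1 was lower (Hspa2), with a median log2 ratio of 0.39 against 0.05 over all genes. Hspa2, an HSP70 best known from the testis, had means of 235 and 187 CPM in the adult sets and 75.1 CPM in pregnancy, with a log2 ratio of -1.41. The most abundant genes of the list were Bag3, a nucleotide exchange factor of HSP70, at 146, 144 and 159 RPKM, and Hspb8, its small heat shock partner, at 68.3, 169 and 161 RPKM. Dnajb2, below 50 CPM in every group, had means of 1.80, 2.68 and 46.5 CPM, the last of which was 5.61 CPM without pregnancy cell 5. None of the 8 subunits of the TRiC chaperonin, which folds actin and tubulin, passed 2-fold, with Cct5 at 0.53, Cct8 at -0.22 and Tcp1 at -0.52. Of 6 tested mitochondrial chaperones, Trap1, the mitochondrial HSP90, was higher at 1.08, with a mean of 168 CPM in pregnancy that was 97.5 CPM without pregnancy cell 61, while Hspe1 and Hspa9 stood at -0.54 and -0.31 and Dnaja3, below 50 CPM, at -0.68. Among heat shock factors, Hsf1, the main activator of the stress genes, was below 50 CPM on average over adult cells, with means of 51.5, 47.5 and 33.6 CPM, Hsf2 had 21.0, 19.8 and 15.5 CPM, and Hsbp1, a binding protein of Hsf1, had a ratio of -0.10.

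The ER lists went in no common direction with the ER members. Of 14 tested ER chaperones and folding enzymes none passed 2-fold, with a median of 0.26 and a range from -0.27 to 0.84. Canx and Calr, the lectin chaperones of glycoproteins, had ratios of -0.26 and 0.49, and Dnajb9, an HSP40 of the ER, had 0.84. Hyou1, the ER HSP110, stayed below 50 CPM with means of 39.5, 13.9 and 7.76 CPM. Of 6 tested regulators of the unfolded protein response, 1 was 2-fold lower in pregnancy, against 11.6% of all tested genes. It was the stress factor Ddit3, at -1.29, while Herpud1 stood at -0.98 and Ppp1r15a at 0.17. Ddit3 had a median of 0 CPM in each group, and pregnancy cell 34 held most of the pregnancy mean of 34.8 CPM, which was 2.91 CPM without it. Immediate early genes, which tissue handling is known to induce, had a median of 0.04 over 13 genes, with Jun higher at 1.32, Dusp1 lower at -2.34, and Fos and Egr1 at -0.16 and -0.01. The 4 tested milk protein genes were all higher in pregnancy, between 2.94 and 6.06, and pregnancy cell 71 held most of the highest, Csn1s2a, whose pregnancy mean was 1509 CPM with and 138 CPM without that cell.

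Correlations between members were computed over the cells of 1 group on log2(CPM + 10). Genes of a cell share its library, depth and denominator, so values are descriptive. Among the 15 pairs of inducible genes the median Spearman rho was 0.19 in marked (n = 81), 0.20 in unmarked (n = 58) and 0.10 in pregnancy cells (n = 71), against 0.08, 0.10 and 0.02 over all pairs of genes with a read in at least 50% of cells. Of all 45 member pairs, 7, 3 and 3 reached a rho of 0.3, that is 15.6%, 6.67% and 6.67%, where 2.85%, 7.89% and 2.67% of all pairs of genes did so. That background holds only genes with a read in at least 50% of cells, and among members that met this the shares were 14.3% of 28, 4.76% of 21 and 5.56% of 36 pairs. These last shares rest on 4, 1 and 2 pairs, some of which have a gene in common. The share of member pairs was thus above the background in marked cells. In unmarked and pregnancy cells too few pairs reached 0.3 to place the share above or below the background.

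In marked cells, 6 of the 7 pairs joined the lower inducible genes without Hsph1. Hspa1a and Dnajb1 had rho 0.44 and Pearson r 0.44, Dnajb1 and Hspb1 0.38 and 0.32, Hspa1a and Hspa1b 0.37 and 0.32, Hspa1a and Hspb1 0.36 and 0.29, Hspa1b and Hspb1 0.33 and 0.32, and Hspa1b and Dnajb1 0.31 and 0.29. The 7th pair was that of the constitutive genes Hspa8 and Hsp90ab1, with rho 0.45 and r 0.54. Hsp90aa1 did not follow the other inducible genes in these cells, with rho between -0.06 and 0.19. In unmarked cells Hspa1a went with Hsph1 (rho 0.57, r 0.26) and with Hspa1b (rho 0.54, r 0.60), but 43 of 58 cells had no read of Hspa1a, and only 12 had reads of both genes in either pair. After thinning to 50000 reads, rho was 0.33 with Hsph1 and 0.58 with Hspa1b. Hspa1a and Hspa1b had rho 0.18 in unmarked cells numbered 113 to 175 (n = 38) and 0.62 in those numbered 176 to 237 (n = 20). The mean of Hspa1a was 6.31 CPM in the former cells and 114 CPM in the latter, or 38.7 CPM without cell 177. In pregnancy cells the pair had rho 0.11 and r -0.01, and reads of shared sequence could in any group be split between them.

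Most pairs of a cytosolic with an ER gene went together little, but so did most pairs of cytosolic genes. Over 16 pairs of a cytosolic with an ER gene the median rho was 0.09, 0.07 and 0.12 in marked, unmarked and pregnancy cells. Over the 28 pairs of cytosolic genes it was 0.08, 0.07 and 0.07. Hspa5 and Hsp90b1 themselves had rho 0.14 (r 0.04) in marked, 0.04 (r 0.07) in unmarked and 0.34 (r 0.29) in pregnancy cells. Over other settings the value ran from 0.04 to 0.25 in marked, from -0.02 to 0.20 in unmarked and from 0.29 to 0.37 in pregnancy cells. The ER genes thus followed each other little in adult cells, though in marked cells how little depended on the setting. Exceptions across compartments were Hsp90ab1 with Hspa5 in unmarked cells (rho 0.52, r 0.45) and Hsp90aa1 with Hsp90b1 in pregnancy cells (rho 0.31, r 0.30). The level of Hsp90b1 went with the number of genes detected after thinning, with rho 0.27 (r 0.29), 0.53 (r 0.47) and 0.36 (r 0.27), and the part of this in the difference between stages was not tested.

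**Figure D5:**
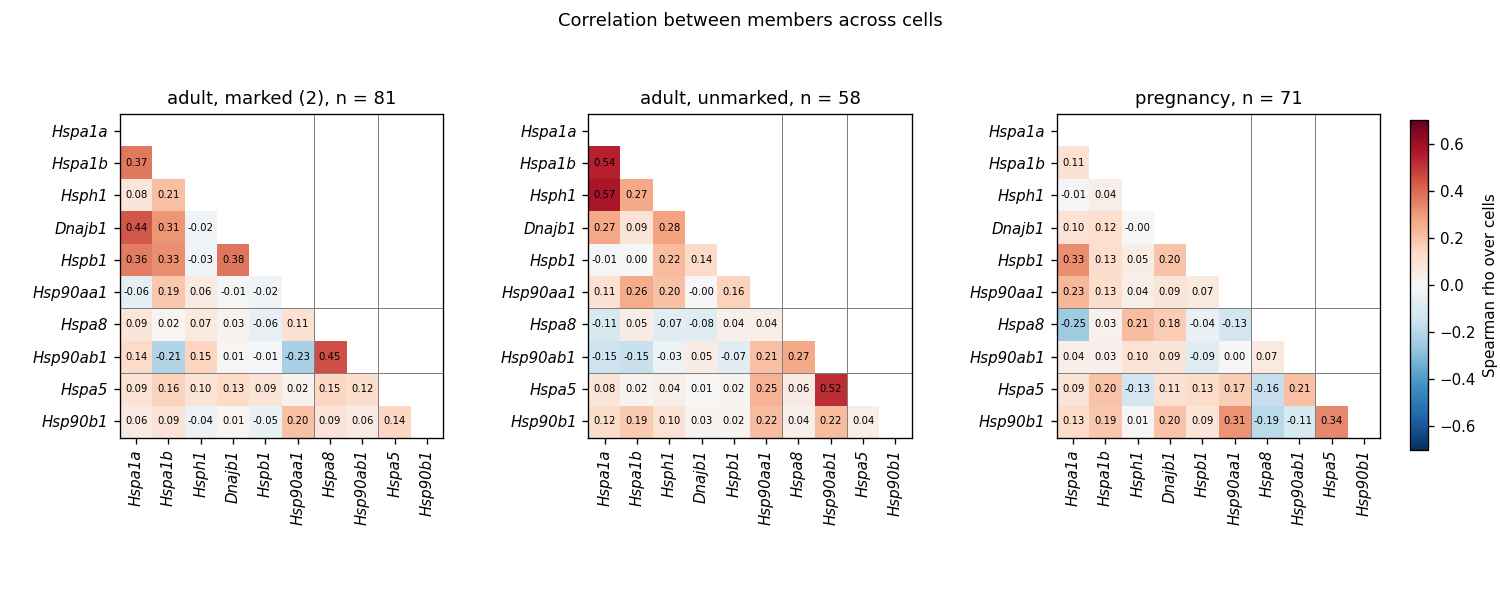
Spearman rho between members over the cells of each group, with one square per pair and lines between inducible cytosolic, constitutive cytosolic and ER genes. The highest values are 0.45 in marked (Hspa8 with Hsp90ab1), 0.57 in unmarked (Hspa1a with Hsph1) and 0.34 in pregnancy cells (Hspa5 with Hsp90b1).

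The Hspa1 pair also varied with the immediate early genes. Its summed level had rho 0.35 (r 0.32), 0.49 (r 0.44) and 0.32 (r 0.29) with the sum of the 13 immediate early genes in marked, unmarked and pregnancy cells. For Hsp90aa1 these values were -0.10 (r -0.05), -0.01 (r 0.08) and 0.03 (r 0.06), and for the ER sum -0.15 (r -0.06), -0.19 (r -0.11) and 0.02 (r -0.01). Among 1526 genes with reads in at least 50% of the cells of each group, those most like Hspa1a by the smallest rho of the 3 groups were Tob1 (0.26), Atf3 (0.25) and Fosb (0.24), the last 2 of them immediate early genes. For the inducible sum, most of which is Hsp90aa1, they were Zfp36l1 (0.34), Mcl1 (0.24), Klf9, Cebpb (both 0.23) and Scn7a (0.21). For the ER sum they included Atp5k (0.29), Fam133b (0.23), Pdia6 (0.23), an ER disulfide isomerase, and Txnl1 (0.21). All of these values are low, and their r was not computed.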

How the data were processed

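Counts of read pairs per Entrez gene were deposited by the authors for 312 cells as raw values. Reads had been aligned to mm10 with Subread 1.5.0 and assigned with featureCounts, per the methods and the submitters' processing notes. Use of strand and treatment of reads with several matches are not given in the sources used here. The counts carry no molecular identifiers, so copies made by PCR are counted separately. Of 27179 gene IDs, 25275 had a RefSeq symbol, and the 1904 without one held 1.66% of reads. After 15 mitochondrial and 124 ribosomal protein genes were left out, 25136 genes remained. No doublet caller was run. The exon length deposited with the counts was used for RPKM.

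CPM was averaged over cells with equal weight, and ratios were taken as log2 of mean CPM + 10. Levels and ratios are compared at a mean of at least 50 CPM and a 2-fold limit, with the same sign against both adult sets. The members and gene lists were chosen with earlier results of these data known. All 10 members were named, and from each list of at least 4 genes the 2 highest in mean RPKM and the 2 with the largest ratio of the same sign against both adult sets, while the 5 genes most like each sum and the 3 most like Hspa1a were named. For the ER sum, 1 of these genes is not reported here. Hspa14 and Dnajb6 fall outside this and were named after their values were seen, and marker lists are given by counts and sums. Intervals are Clopper-Pearson or Poisson, and for a share of 0 the limit is 3 counts of the total. Thinning to 50000 reads used a fixed seed. Computation used Python 3.11.15 with numpy 2.4.6, pandas 2.3.3 and scipy 1.17.1, and was tested on simulated data. TMM factors (edgeR 4.0.16) and size factors (DESeq2 1.42.0, R 4.3.3) served as alternative scalings of group sums. Other alternatives were pseudocounts, filters, weightings and subsets of cells.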

Additional observations from a re-analysis of the deposited data

Results flagged for a closer look

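Chaperone transcripts were also read in the cells left out for low depth, which no comparison used, and all values lie above the limit that 3 counts of the total allow. In 98 left-out adult cells, with 1171743 assigned reads in all, the 8 cytosolic genes took 0.833% of reads (0.817 to 0.850, exact binomial), against 0.747% in retained adult cells. The ER genes took 0.217% (0.208 to 0.225), against 0.335%. In 4 left-out pregnancy cells, with 93619 assigned reads, the cytosolic genes took 0.559% (0.512 to 0.608), against 0.700% in retained pregnancy cells, and the ER genes 0.491% (0.448 to 0.538), against 0.333%. The lower ER share of left-out adult cells and the higher one of left-out pregnancy cells were not tested.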

How the results depend on the processing

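With 1 sample per group no result rests on a test. The cytosolic sum stayed between -0.22 and 0.02 and the ER sum between -0.15 and 0.24 (log2 ratio of pregnancy over adult) under 13 alternatives. No member passed 2-fold under 12 of them, and 1, Hsp90b1 at 1.20, did when log2 values were averaged over cells. The sign of the ratio held under all 13 for Hsph1, Hspb1, Hspa5 and Hsp90b1, while it changed under at least 1 for Hspa1a, Hspa1b, Dnajb1, Hsp90aa1, Hspa8 and Hsp90ab1. It held only narrowly for Hsph1 (0.008 to 0.73) and Hspa5 (-0.54 to -0.05). For Hspb1 the ratio ran from -0.89 to -0.17 and for Hsp90b1 from 0.31 to 1.20. TMM factors moved the median over all genes by -0.06, DESeq2 size factors by -0.12 and scaling to all reads by -0.15. The median rho of inducible pairs in unmarked cells was 0.0591 at 100000 reads and 1500 genes, which left 29 cells, and 0.20 in all 58 retained cells, and the cause was not tested. Of unmarked over marked ratios, 1 member, Hsph1, was past 2-fold without unmarked cell 157, without the highest cell of each adult set and in cells with at least 6 core basal genes. These 3 settings and the sum without Hsp90aa1 were added after the data were seen. Depth limits the shares of cells for the lower inducible genes, since 100 CPM is 5 reads at the lowest depth. No paired analysis was possible because title numbers only name cells and no result comes from a test.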
